A study of Mus musculus with 9 samples.

Results

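The comparison described here sets spleens of mice with Graves' disease (GD) on a normal dietary selenium supply (normal Se GD) against spleens of mice with Graves' disease on a low supply (low Se GD). It uses 6 of the 9 samples of the series, chosen by their titles, with 3 arrays in each group. All 9 samples are total RNA from spleens of female BALB/c mice, each hybridised to an Agilent whole mouse genome array with 1 colour, and the remaining 3 come from low-selenium mice labelled non-GD (low Se non-GD). No normal-selenium group without the disease was analysed here, so the question of how selenium supply bears on the spleen was asked among diseased mice only. The labels do not say how the disease was induced, what the diets held, how old the mice were or whether replicates are separate animals. A p-value here thus sets a difference only against the spread within the groups of these 9 samples, and that spread may be technical.

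Selenium is built into a small family of proteins as the amino acid selenocysteine, which is inserted at a UGA codon with the help of a hairpin in the messenger RNA. Members of the family remove peroxides (glutathione peroxidases), reduce thioredoxin (thioredoxin reductases) or activate and inactivate thyroid hormone (deiodinases). Graves' disease is an autoimmune disease in which antibodies stimulate the thyrotropin receptor of the thyroid. The spleen holds B cells, T cells, dendritic cells and macrophages, and in the mouse it is also a site of red blood cell formation, with dividing erythroid precursors in its red pulp.

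The array carries 32451 genes or unnamed accessions, and 18659 of them had a probe well above background on all 6 GD arrays and were tested. Levels are log2 of the background-corrected signal minus the 75th percentile of the array, so a level of 0 is the 75th percentile and a difference of 1 is a doubling. Differences are normal Se GD minus low Se GD throughout. A gene was counted as changed where its adjusted p was under 0.05 in a limma fit over all 9 arrays, with Benjamini-Hochberg adjustment over all genes tested. On that rule 960 genes (5.14%) were higher in normal Se GD and 357 (1.91%) were lower. The groups did not overlap, meaning that each array of 1 group exceeded each array of the other, for 4019 genes higher in normal Se GD (21.5%) and 2658 genes lower (14.2%). The median difference of all genes was 0.01. In a fit to the 6 GD arrays alone, 424 genes (2.27%) were higher and 363 (1.95%) were lower.

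All 33 B cell markers and 27 of 28 T cell markers were well above background on all 6 GD arrays. Arrays within the groups were not alike, and this touches every call below. Normal Se GD replicate 3 was dimmer than the other GD arrays, with 58.4% of its spots well above background against 74.1% to 82.6%. It was the only array with its scan date, taken here to mark its slide. The first principal component of the 6 arrays, with 63.5% of the variance, set this array at 79.5 and the others between -25.2 and -6.59. Low Se GD replicate 2 lay between replicates 1 and 3 of its group for 68.9% of genes, and for 97.2% of the 635 genes in which those replicates were at least 2-fold apart. On the linear scale its signal for those genes stood at a median 0.397 of the way from replicate 3 to replicate 1 (quartiles 0.327 and 0.463). Low Se non-GD replicate 3, which adds to the estimated spread, stood in the same way between the other arrays of its group, for 98.7% of 1105 such genes and at a median 0.502 of the way. Without low Se GD replicate 2, no gene passed the threshold in limma, where 2284 genes were higher and 1085 lower at an unadjusted p under 0.05 and the smallest adjusted p was 0.0903. The cause was not tested.

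**Figure D1:**
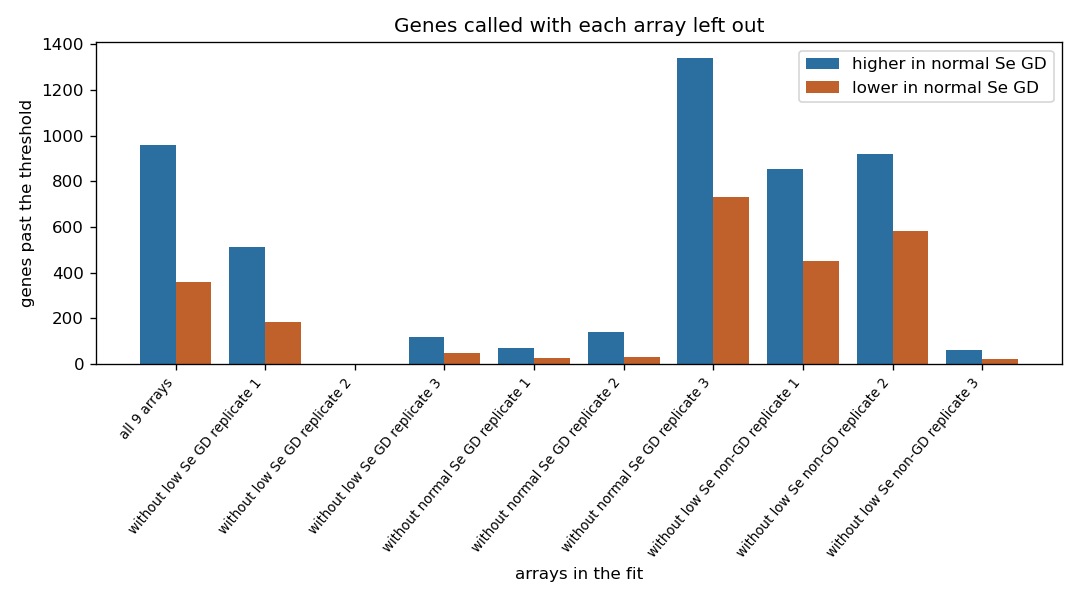
Number of genes past an adjusted p of 0.05 (vertical axis), higher (blue) or lower (orange) in normal Se GD, in the limma fit to all 9 arrays and in fits with 1 array left out (horizontal axis). No gene passed without low Se GD replicate 2, 60 higher and 21 lower passed without low Se non-GD replicate 3, and 1341 and 732 passed without the dim normal Se GD replicate 3.

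Slides, told apart here only by the scan date in the file headers, add a second limit. Slide 1 holds all 3 low Se non-GD arrays with low Se GD replicate 1, and no normal Se GD array. A difference between low Se non-GD and normal Se GD levels thus cannot be told apart from one between slides. Both GD groups share only slide 2, which holds replicates 2 and 3 of low Se GD with replicates 1 and 2 of normal Se GD. A limma fit to those 4 arrays called 3272 genes higher and 2383 lower of 18659. These held 945 of the 960 higher and 354 of the 357 lower genes of the 9-array fit. The same 4 arrays entered the 9-array fit, so this overlap is not a separate check. They include low Se GD replicate 2 and leave out the dim array. Because the GD groups share only this slide, medians of gene lists are also given within it, where the median of all genes was 0.07.

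Red cell precursor genes were lower in normal Se GD. Of 44 tested erythroid precursor genes, 4 fell and none rose, against 1.91% and 5.14% of all genes. At an unadjusted p under 0.05, 24 were lower and 0 higher. Their median difference was -0.99, and 34 of the 44 had all 3 normal Se GD arrays below all 3 low Se GD arrays. Within slide 2 the median was -1.21. The mean level of the list was 2.33, 2.57 and 2.74 in low Se GD replicates 1 to 3, and 1.70, 1.72 and 1.78 in normal Se GD. Every low Se GD array stood above every normal Se GD array, with replicate 1 the lowest of its group. In the low Se non-GD arrays the same mean ran from 1.06 to 2.53, a range that reaches past the normal Se GD arrays on one side and into the low Se GD arrays on the other. This spread enters the error of the 9-array fit, and in the fit to the 6 GD arrays alone 21 of the 44 genes fell.

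Tal1 and Epor act at the head of this programme. Tal1, a transcription factor needed for blood cell and erythroid development, had levels of 2.69, 2.96 and 3.18 in low Se GD and 1.53, 1.50 and 2.03 in normal Se GD. The groups did not overlap, and the dim array was the highest of its group. The difference was -1.25 with an SE of 0.27 (adjusted p = 0.0365). Epor, the erythropoietin receptor, was at 2.46, 2.73 and 2.88 in low Se GD and at 1.55, 1.54 and 1.60 in normal Se GD. Its 3 normal Se GD arrays were nearly level, and the difference was -1.12 with an SE of 0.27 (adjusted p = 0.0483).

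Aqp1 and Add2, of the red cell membrane, also fell. Aqp1, the water channel of the red cell membrane, was at 5.02, 5.23 and 5.36 in low Se GD and at 3.91, 3.89 and 3.87 in normal Se GD, a difference of -1.31 with an SE of 0.26 (adjusted p = 0.0304). Add2, an adducin that joins spectrin to actin under the membrane, had levels of 1.57, 1.74 and 1.82 against 0.46, 0.43 and 0.60. In neither gene did a normal Se GD array reach the low Se GD arrays. The difference of Add2 was -1.21 with an SE of 0.23 (adjusted p = 0.0262). Tspan33, Kel and Ank1 missed the threshold, with differences of -1.23, -1.33 and -1.07 and adjusted p-values of 0.0506, 0.0567 and 0.0581. Kel encodes a red cell blood group antigen and Ank1 the ankyrin of the red cell skeleton.

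Globin genes, named here after their values were seen, did not share this pattern. Hba-a1 was at 8.25, 7.68 and 7.89 in low Se GD and at 7.97, 7.98 and 7.91 in normal Se GD, so that the groups overlapped. Its difference was 0.01 with an SE of 0.33 (adjusted p = 0.983), and that of Hbb-b2 was -0.20 with an SE of 0.40 (adjusted p = 0.78). Globin RNA is the most abundant product of late erythroid cells and stays in young red cells after the nucleus is lost. In whole spleen, fewer cells of a type and less RNA per cell cannot be told apart.

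Haem synthesis genes were lower too. Of 17 tested, 2 fell (11.8%, against 1.91% of all genes) and none rose. For 13 the groups did not overlap, lower in normal Se GD, against 14.2% of all genes. The median difference was -0.75, and -1.02 within slide 2. Abcb10, a transporter of the inner mitochondrial membrane needed for haem synthesis in erythroid cells, was at 3.53, 3.84 and 4.02 in low Se GD and at 2.39, 2.38 and 2.13 in normal Se GD. That is 3.80 ± 0.25 (SD, n = 3) against 2.30 ± 0.15 (SD, n = 3), a difference of -1.50 (SE 0.27, adjusted p = 0.024). Uros, the enzyme that closes the porphyrin ring as uroporphyrinogen III, was at 2.95, 3.33 and 3.54 against 2.10, 1.96 and 2.31. Its difference was -1.15 (SE 0.27, adjusted p = 0.0425). Ppox, a late enzyme of the pathway, and the mitochondrial iron importer Slc25a37 did not pass, at -0.71 and -1.02 with adjusted p-values of 0.0565 and 0.0625. In the 6-array fit 8 of the 17 genes fell.

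Genes of cell division and DNA replication had a median difference of -0.70. Of 80 tested, 3 fell, none rose, and 63 were lower without overlap, against 1.91% and 14.2% of all genes, so the share that passed (3.75%) was near that of all genes. The median was -0.89 within slide 2, and 14 of the 80 fell in the 6-array fit. The mean level of the list was 0.92, 1.27 and 1.46 in low Se GD, then 0.53, 0.54 and 0.55 in normal Se GD, and from 0.11 to 1.22 in low Se non-GD. Normal Se GD arrays were close together and below each low Se GD array. Mcm3, a subunit of the replicative helicase, had levels of 2.72, 2.96 and 3.08 in low Se GD and 2.06, 2.19 and 2.21 in normal Se GD, a difference of -0.77 (SE 0.15, adjusted p = 0.0288). Fen1, the nuclease that trims Okazaki fragments, fell by 0.87 (SE 0.21, adjusted p = 0.0479). Cdt1, which loads the helicase at origins, fell by 0.72 (SE 0.17, adjusted p = 0.0428). Ccne1, the S phase cyclin E1, was at -1.14 and did not pass (adjusted p = 0.0571), and its 2 probes gave -1.14 and -0.49.

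Replication-dependent histones, whose messenger RNAs are made in S phase and mostly lack a poly(A) tail, were lower in normal Se GD. Of 29 tested, 9 fell, against 1.91% of all genes, none rose, and the median difference was -0.60, and -0.59 within slide 2. In the 6-array fit 15 of the 29 fell. H2bc18 was at -1.63, -1.61 and -1.66 in low Se GD and at -2.35, -2.32 and -2.35 in normal Se GD. Replicates differed by at most a few hundredths, and the difference was -0.71 with an SE of 0.07 (adjusted p = 0.0124). H4c4 fell by 0.79 (SE 0.16, adjusted p = 0.0301) and H2bu2 fell by 0.80 (SE 0.18, adjusted p = 0.0407). Histone genes are near-identical copies, so a probe can read several of them and the separate values are uncertain.

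**Figure D2:**
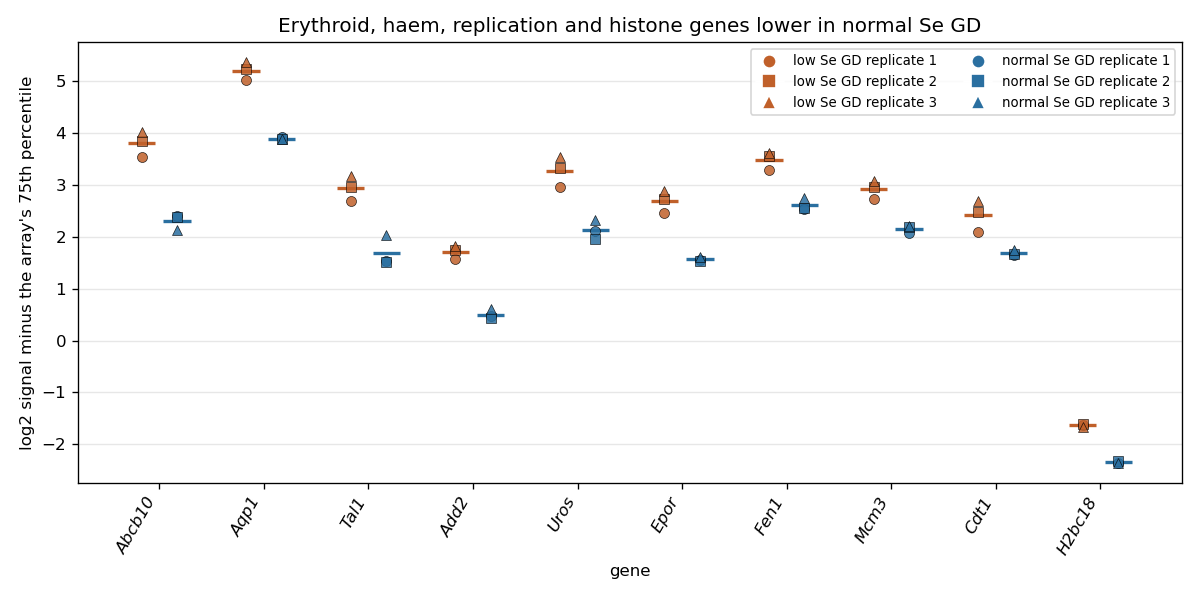
Log2 level minus the array's 75th percentile (vertical axis) of 10 genes lower in normal Se GD (horizontal axis), 1 symbol per array, with the group means as bars (orange low Se GD, blue normal Se GD). In each gene every blue symbol lies below every orange one, and in 9 of the 10, all but H2bc18, low Se GD replicate 2 lies between replicates 1 and 3.

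The promoters of genes that fell together are shown for the motifs their known regulators bind: GATA factors bind AGATAA, and Klf1 binds CACCC boxes, searched here as CCACCC. The windows are the 250 bases before the RefSeq start of the gene, read on the gene's strand from RefSeq GRCm38.p6, and both strands were searched. The motifs do not overlap each other. Capitals mark a match in either orientation, with TTATCT as the reverse of AGATAA and GGGTGG as that of CCACCC. The window of Epor lies at chr9:21963577-21963826 on the minus strand and that of Tal1 at chr4:115056176-115056425 on the plus strand. The window of Aqp1 lies at chr6:55336049-55336298 on the plus strand.
Epor: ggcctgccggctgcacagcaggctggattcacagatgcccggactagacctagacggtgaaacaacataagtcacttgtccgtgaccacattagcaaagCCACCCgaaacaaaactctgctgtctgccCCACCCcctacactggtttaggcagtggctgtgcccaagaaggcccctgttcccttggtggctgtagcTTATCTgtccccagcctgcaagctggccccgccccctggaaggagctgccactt
Tal1: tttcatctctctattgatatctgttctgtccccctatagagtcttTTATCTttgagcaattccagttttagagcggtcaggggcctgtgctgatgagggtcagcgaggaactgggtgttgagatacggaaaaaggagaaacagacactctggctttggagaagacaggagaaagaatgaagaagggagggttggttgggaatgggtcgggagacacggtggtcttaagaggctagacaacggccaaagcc
Aqp1: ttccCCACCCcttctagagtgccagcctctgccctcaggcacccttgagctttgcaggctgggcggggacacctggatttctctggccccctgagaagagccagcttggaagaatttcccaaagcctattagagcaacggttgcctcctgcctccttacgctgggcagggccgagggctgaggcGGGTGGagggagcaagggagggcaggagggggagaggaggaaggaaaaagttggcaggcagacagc
Epor holds 1 AGATAA match and 2 CCACCC matches, Tal1 holds 1 AGATAA match, and Aqp1 holds 2 CCACCC matches. These windows were printed because they hold matches. The window of a second Tal1 start, at chr4:115057561-115057810, holds 0 of either motif, as do the windows of Add2, Abcb10 and Uros, which also fell. AGATAA was found in 9 of 32 erythroid precursor genes with a window (28.1%), and in 8.18% of the 10757 tested genes with one. CCACCC was found in 16 of the 32 (50%), and in 36.8% of tested genes. Among the 12 haem synthesis genes with a window, 1 held AGATAA (8.33%) and 5 held CCACCC (41.7%), near the 8.18% and 36.8% of tested genes. A match describes these letters only, and genes without one may be bound elsewhere.

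The largest single difference was that of a fat tissue gene. Fabp4, the fatty acid carrier of fat cells, was at 5.50, 4.46 and 2.11 in low Se GD and at -1.04, -0.96 and -0.91 in normal Se GD. Low Se GD arrays were spread over more than 3 units and all stood above the normal Se GD arrays, which were level. The difference was -4.99 with an SE of 0.94 (adjusted p = 0.0272), the largest of all genes tested. Retn, the fat cell hormone resistin, was at 0.65, -0.43 and -1.78 against -2.88, -3.02 and -2.81, and Thrsp, a thyroid-responsive regulator of fat synthesis, at 0.83, 0.17 and -1.03 against -3.23, -3.29 and -2.56. The differences were -2.38 (SE 0.51, adjusted p = 0.0356) and -3.01 (SE 0.63, adjusted p = 0.0338). In all 3 genes replicate 1 was the highest of the low Se GD arrays and replicate 3 the lowest.

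Of the 28 fat tissue genes, 16 were tested. Among these Fabp4, Retn, Thrsp and Dgat2 fell, Lpin1 rose, and the median difference was -0.34 (-0.17 within slide 2). The mean level of the 16 was 0.28, -0.02 and -0.55 in low Se GD, ran from -0.97 to -0.77 in normal Se GD and from -1.08 to -0.61 in low Se non-GD. The other 12 did not pass the background filter, 8 of them only because of 1 normal Se GD array. Adipoq, the fat cell hormone adiponectin, was one of these, at 1.40, 0.43 and -1.52 in low Se GD and at -5.62, -5.81 and -5.04 in normal Se GD. Cfd, the fat cell protease adipsin, was at 4.24, 3.22 and 0.74 against -4.79, -4.64 and -4.77. In low Se non-GD the arrays were far apart, with Adipoq at -1.97, -5.40 and -2.85 and Cfd at 0.91, -7.57 and -0.07. Both were well above background on all 3 low Se GD arrays and on 2 of the 3 normal Se GD arrays, so no difference is given for them. Fat cells are not part of splenic pulp, and fat lies along the vessels at the hilum. The part of attached fat in the other results was not tested.

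Slc2a4, the insulin-responsive glucose transporter of muscle and fat, was among the 15 genes with the largest fall. It was at 0.80, 0.87 and 0.90 in low Se GD and at -0.66, -0.67 and -0.34 in normal Se GD, a difference of -1.41 (SE 0.24, adjusted p = 0.0197). Unlike Fabp4, its low Se GD arrays were level. Cyp2e1, a cytochrome P450 best known from liver, was at 2.30, 1.36 and -0.94 against -2.23, -2.12 and -3.42, with the same order of low Se GD arrays as Fabp4. Its difference was -3.50 (SE 0.74, adjusted p = 0.0346). Klf15, a transcription factor of muscle, fat and liver metabolism, fell by 1.30 (SE 0.30, adjusted p = 0.0411). Slc6a9, the glycine transporter that feeds haem synthesis in erythroid cells, fell by 1.31 (SE 0.31, adjusted p = 0.0431), and its 2 probes gave -1.31 and -1.29. Redrum, a long noncoding RNA of erythroid cells, fell by 1.28 (SE 0.31, adjusted p = 0.0483).

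Some genes were measured in 1 GD group only, well above background on all 3 of its arrays and on none of the other's. Of the 32451 genes or accessions on the array, 19 were such in low Se GD, 9 of them with a gene symbol, and 2 in normal Se GD. Normal Se GD holds the dim array, with 58.4% of its spots above background, so passing on all 3 arrays was harder there. For these a fold is a lower bound, the mean of the bright group over, on each dim array, the higher of the probe's signal and the lowest signal counted as above background. The bound was above 1-fold for 14 of the 19 genes and for both genes of normal Se GD. The others had bounds under 1-fold, which show no difference. Cyp2f2, a cytochrome P450 of airway cells, was at least 10.04-fold higher in low Se GD. Rbp4, the retinol carrier made by liver and fat, was at least 8.49-fold higher. Mup18, Mup17 and Mup3, major urinary proteins made mainly by liver, were at least 6.14, 4.28 and 2.13-fold higher, though these genes are near-identical copies that share probes. Cidea, a lipid droplet protein of fat cells, was at least 1.95-fold higher by the group mean. Its levels were -3.30, -4.33 and -6.28 in low Se GD, with replicate 3 far below the others. In normal Se GD they were -7.51, -7.37 and -6.43. In normal Se GD the single gene with a symbol was Rnf225, at least 1.92-fold higher.

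Selenoprotein genes had a small median difference between these groups, which are labelled by selenium supply. Of 24 selenoprotein genes 23 were tested, Dio2 not being above background on all 6 arrays. Txnrd2 fell, none rose, and single differences ran from -0.90 to 0.44. The median difference was 0.05, or -0.05 within slide 2. Under the 26 other settings and array choices tried, this median lay between -0.05 and 0.10. The mean level of the 23 genes ran from 1.05 to 1.11 in low Se GD and from 1.01 to 1.05 in normal Se GD, against 0.61 to 0.79 in low Se non-GD.

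Gpx1, Selenow, Selenoh and Msrb1, whose messenger RNAs are known to fall when selenium is short, made a list of 4. None of them passed in limma, nor did any reach an unadjusted p under 0.05 (0 of 4). Gpx1, the cytosolic glutathione peroxidase, had levels of 5.73, 5.79 and 5.90 in low Se GD and 5.50, 5.42 and 5.84 in normal Se GD. The groups overlapped, and the difference was -0.22 with a 95% interval from -0.80 to 0.37 (adjusted p = 0.615). Selenow, a small selenoprotein of muscle and immune cells, differed by 0.18 (interval -0.20 to 0.56, adjusted p = 0.517) and the nuclear selenoprotein Selenoh by -0.06 (interval -0.27 to 0.14, adjusted p = 0.673). These intervals leave room for changes within their bounds, and a p that misses the threshold does not show that levels were alike.

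Txnrd2, the mitochondrial thioredoxin reductase, was at 2.66, 2.82 and 2.94 in low Se GD and at 1.80, 1.88 and 2.03 in normal Se GD. The groups did not overlap, and the gene was lower where selenium was normal, at a difference of -0.90 (SE 0.22, adjusted p = 0.0479). In the low Se non-GD arrays it was at 2.87, 1.90 and 2.45. The difference lay between -1.04 and -0.82 under all 26 alternatives, and the call was lost under 17 of them. With quantile normalization the adjusted p in limma was 0.0821, with slide as a block 0.0572, and leaving out any 1 GD array gave from 0.0523 to 0.159. Txn2, the mitochondrial thioredoxin that Txnrd2 reduces, also fell, from 4.02, 3.99 and 4.01 to 3.55, 3.47 and 3.41, a difference of -0.53 (SE 0.08, adjusted p = 0.016). The cytosolic reductase Txnrd1 was at 1.37, 1.59 and 1.69 against 1.62, 1.68 and 1.72, and overlapped between the groups. Its difference was 0.13 (interval -0.10 to 0.36, adjusted p = 0.456).

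Transport and endoplasmic reticulum selenoproteins did not pass. Selenop, the plasma carrier of selenium, was at 5.89, 5.52 and 5.24 in low Se GD and at 5.19, 5.30 and 4.66 in normal Se GD, a difference of -0.50 (SE 0.20, adjusted p = 0.162). Within slide 2 that difference was -0.13. Selenos and Selenom, of the endoplasmic reticulum, were at 0.40 (SE 0.16, adjusted p = 0.154) and 0.28 (SE 0.11, adjusted p = 0.155), each without overlap. Gpx4, which repairs lipid peroxides in membranes, was at -0.26 (interval -0.52 to 0.00, adjusted p = 0.193), and Gpx3, the plasma glutathione peroxidase, at -0.57 (interval -1.42 to 0.28). Deiodinases Dio1 and Dio3 were at -0.57 and 0.31, with adjusted p-values of 0.291 and 0.215.

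**Figure D3:**
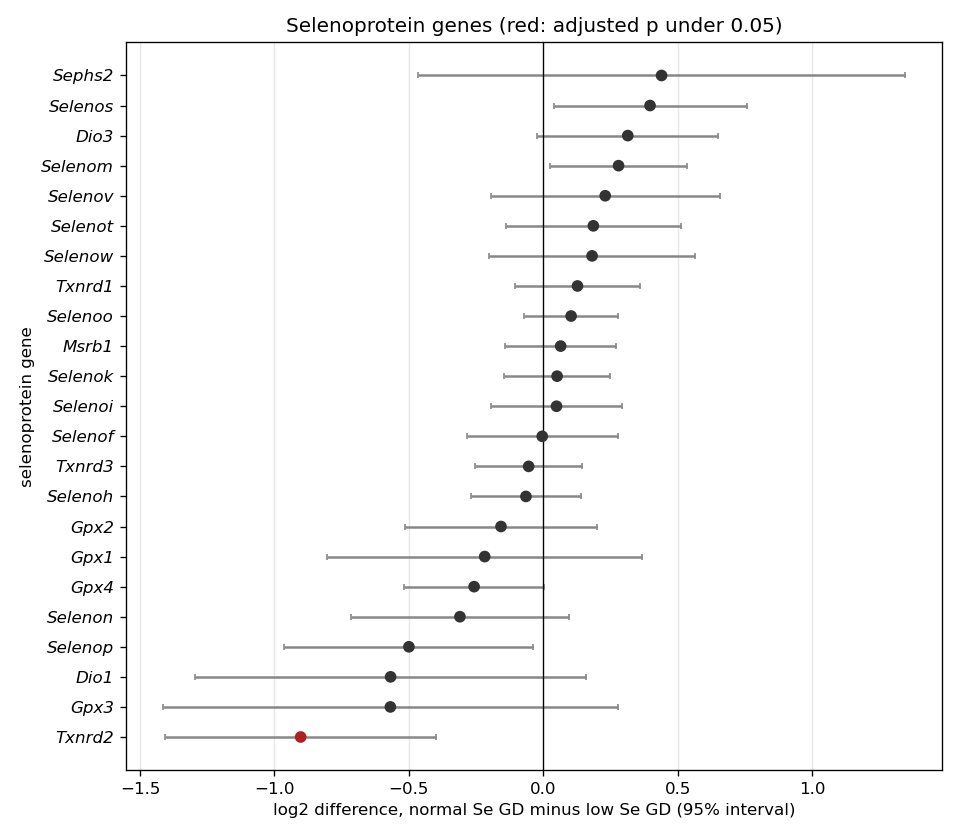
Log2 difference, normal Se GD minus low Se GD (horizontal axis), with its 95% interval from limma, for each of the 23 tested selenoprotein genes (vertical axis). Txnrd2, in red, is the single gene past an adjusted p of 0.05, at -0.90. The intervals of Selenos, Selenom and Selenop also leave out 0.

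Genes that make selenocysteine or handle selenium gave 1 higher (5.26%, near the 5.14% of all genes) and 0 lower of 19, with a median of -0.03 (0.01 within slide 2). The higher one was Ncl, a nucleolar protein that also binds selenoprotein messenger RNA, at 0.62 (SE 0.15, adjusted p = 0.0465), but its 2 probes gave 0.62 and -0.19. Sepsecs, the enzyme that forms selenocysteine on its transfer RNA, was at 0.33 (SE 0.09, adjusted p = 0.0674). Selenbp1, a selenium-binding protein abundant in red cells, was at -0.63 (SE 0.20, adjusted p = 0.0956), lower in every normal Se GD array. Among 36 antioxidant enzymes and NRF2 targets 2 rose and 2 fell (5.56% each, against 5.14% and 1.91% of all genes). Slc7a11, the cystine importer that feeds glutathione synthesis, was at -3.01, -3.09 and -2.69 in low Se GD and at -1.97, -1.99 and -1.89 in normal Se GD, a rise of 0.98 (SE 0.20, adjusted p = 0.0328). Abcc1, which exports glutathione conjugates, rose by 0.47 (SE 0.07, adjusted p = 0.0164), and Me1, the cytosolic malic enzyme, fell by 0.71 (SE 0.14, adjusted p = 0.0284). Prdx2, the peroxiredoxin most abundant in red cells, missed the threshold at -1.22 (adjusted p = 0.0513).

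Thyroid hormone genes had a median difference of 0.01 (0.08 within slide 2), and 2 of 18 fell (11.1%, against 1.91% of all genes). Besides Thrsp this was Thra, the thyroid hormone receptor alpha, at 1.89, 2.02 and 2.06 in low Se GD and at 1.33, 1.32 and 1.42 in normal Se GD. Its difference was -0.63 (SE 0.10, adjusted p = 0.0179), and its second probe gave -0.03. Slc16a10, a transporter of thyroid hormone and aromatic amino acids, was at -1.16 (SE 0.30, adjusted p = 0.0545). Crym, which binds thyroid hormone in the cytosol, was at 0.78 (SE 0.21, adjusted p = 0.0641).

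B cell genes were higher in normal Se GD. Of 33 B cell markers 7 rose and none fell, against 5.14% of all genes, and 18 were higher without overlap against 21.5%. Fewer, 4 of the 33, rose in the 6-array fit, against 2.27% of all genes. The median difference was 0.31, and 0.26 within slide 2. Mean levels of the list were 1.99, 1.97 and 1.93 in low Se GD, and 2.18, 2.20 and 2.27 in normal Se GD, and ran from 2.05 to 2.23 in low Se non-GD. The normal Se GD arrays all stood above the low Se GD arrays. Low Se non-GD arrays, all on slide 1, reached into the normal Se GD range.

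Fcer2a, the low-affinity IgE receptor CD23 of follicular B cells, was at -0.10, -0.12 and -0.14 in low Se GD and at 0.66, 0.78 and 1.02 in normal Se GD. Low Se GD arrays were within a few hundredths of each other, and the difference was 0.94 with an SE of 0.11 (adjusted p = 0.0124). Pax5, the transcription factor that holds B cell identity, was at -0.68, -0.96 and -1.33 against -0.34, -0.37 and 0.02, a rise of 0.76 (SE 0.18, adjusted p = 0.0425). Blk, a kinase that signals below the B cell receptor, was at -1.41, -1.34 and -1.35 against -0.77, -0.84 and -0.58, a rise of 0.64 (SE 0.09, adjusted p = 0.0164). Bank1, a scaffold of the same signalling, rose by 0.52, and Fcmr, the receptor for IgM, by 0.56. Cd72 and Siglecg, inhibitory receptors of B cells, were at 0.38 and 0.55 and missed the threshold, with adjusted p-values of 0.055 and 0.0576. Tnfsf13b, which encodes the B cell survival factor BAFF, rose by 0.44 (SE 0.08, adjusted p = 0.0236), from -0.56, -0.65 and -0.75 to -0.16, -0.26 and -0.22.

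Plasma cell and secretory genes gave 4 higher (12.9%, against 5.14% of all genes) and 0 lower of 31, with a median of 0.18 (0.04 within slide 2). Fewer, 2 of the 31, rose in the 6-array fit. Slamf7, a receptor of plasma, natural killer and dendritic cells, was at -2.09, -1.98 and -2.01 in low Se GD and at -1.38, -1.30 and -1.20 in normal Se GD. Its difference was 0.74 with an SE of 0.08 (adjusted p = 0.0124), and the groups lay well apart. Sdf2l1, a chaperone component of the endoplasmic reticulum, rose by 0.69 (SE 0.09, adjusted p = 0.0132), and Irf4, which drives plasma cell differentiation, by 0.51 (SE 0.12, adjusted p = 0.0402). Xbp1, the transcription factor of the secretory programme, was at 0.37 and did not pass (adjusted p = 0.115). Among 10 germinal centre genes Basp1 rose by 0.53 (SE 0.12, adjusted p = 0.0391).

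Antigen presentation genes of MHC class II gave 5 higher (31.25%, against 5.14% of all genes) and 0 lower of 16. Of the 16, 11 were higher without overlap, against 21.5% of all genes, and 3 rose in the 6-array fit. The median difference of the list was 0.32, and 0.23 within slide 2. H2-DMb2, a chain of the molecule that exchanges peptides on class II, was at 0.59, 0.39 and 0.09 in low Se GD and at 1.15, 1.21 and 1.26 in normal Se GD, a rise of 0.85 (SE 0.13, adjusted p = 0.0164). H2-DMa, its partner chain, was at 0.22, 0.25 and 0.25 against 0.73, 0.76 and 0.83, a rise of 0.53 (SE 0.07, adjusted p = 0.0132). Replicates of H2-DMa were close together, while the low Se GD arrays of H2-DMb2 were further apart. H2-Oa, a chain of the inhibitor of that exchange, rose by 0.43 (SE 0.10, adjusted p = 0.0457), and H2-Ab1, a chain of class II itself, by 0.39 (SE 0.08, adjusted p = 0.0348). Rfx5, a factor that binds class II promoters, rose by 0.55 (SE 0.08, adjusted p = 0.0164). The invariant chain Cd74 and H2-Aa were at 0.39 and 0.37 and did not pass, with adjusted p-values of 0.114 and 0.146.

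Class II promoters are known for a CCAAT box bound by NF-Y next to the site of the Rfx5 complex, and the windows of a pair of genes that rose are shown with CCAAT, or its reverse ATTGG, in capitals. Both lie on the plus strand, H2-DMb2 at chr17:34144999-34145248 and H2-Oa at chr17:34092129-34092378, as given by RefSeq GRCm38.p6.
H2-DMb2: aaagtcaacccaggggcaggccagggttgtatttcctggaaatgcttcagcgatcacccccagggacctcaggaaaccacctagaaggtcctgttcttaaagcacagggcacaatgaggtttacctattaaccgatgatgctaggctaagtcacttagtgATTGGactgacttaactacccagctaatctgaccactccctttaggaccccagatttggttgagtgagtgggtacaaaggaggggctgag
H2-Oa: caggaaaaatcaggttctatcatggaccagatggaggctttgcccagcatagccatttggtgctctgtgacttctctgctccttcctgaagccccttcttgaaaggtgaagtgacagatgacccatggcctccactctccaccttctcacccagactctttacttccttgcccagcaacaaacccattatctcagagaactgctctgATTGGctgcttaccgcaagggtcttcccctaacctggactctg
CCAAT was found in 10 of the 12 class II genes with a window (83.3%), and in 40.1% of tested genes. Each of the printed windows holds 1 match, and Rfx5 holds 2. Of the 2 windows of H2-DMa, 1 holds a match and the other none.

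Dendritic cell markers gave 7 higher (28%, against 5.14% of all genes) and 0 lower of 25, and their median difference was 0.38 (0.28 within slide 2). Fscn1, the actin bundler of mature dendritic cells, was at -2.59, -2.69 and -2.79 in low Se GD and at -1.91, -1.91 and -1.64 in normal Se GD, a rise of 0.87 (SE 0.10, adjusted p = 0.0124). Itgax, the integrin CD11c, was at 0.51, 0.64 and 0.75 against 1.22, 1.26 and 1.43, a rise of 0.67 (SE 0.09, adjusted p = 0.0154). Groups did not overlap in either gene. Clec9a, a receptor for dead cells on cross-presenting dendritic cells, rose by 0.51 (SE 0.09, adjusted p = 0.0223), and Batf3 and Irf8, factors that those cells need, rose by 0.54 and 0.38. Flt3, the growth factor receptor of dendritic cells, was at 0.44 and did not pass (adjusted p = 0.0565). The mean level of the list was 0.51 to 0.55 in low Se GD, 0.81 to 0.88 in normal Se GD and 0.26 to 0.36 in low Se non-GD.

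Genes of marginal zone macrophages were among those that rose. Of 33 monocyte and macrophage markers 4 rose (12.1%, against 5.14% of all genes) and none fell, with a median of 0.30 (0.16 within slide 2). Marco, a scavenger receptor of marginal zone macrophages, was at 3.20, 3.33 and 3.39 in low Se GD and at 3.92, 3.97 and 3.94 in normal Se GD. The normal Se GD arrays were nearly level, and the rise was 0.64 (SE 0.11, adjusted p = 0.0195). Cd209b, the SIGN-R1 lectin of the same cells, rose by 0.76 (SE 0.16, adjusted p = 0.0338). Timd4, a receptor that binds dying cells, and Treml4, of the red pulp list, rose by 0.56 and 0.80. Red pulp macrophage and iron recycling genes as a whole had a median of 0.16 (0.10 within slide 2). Of 23, 2 were higher (8.70%, against 5.14% of all genes) and 1 lower (4.35%, against 1.91%), the lower one being Epor. Cd300a, an inhibitory receptor of myeloid cells, was at -0.94 and did not pass (adjusted p = 0.0677).

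Inflammatory cytokines and NF-kB targets had the highest median of the 40 lists, at 0.42 (0.28 within slide 2). Of 25, 5 were higher (20%, against 5.14% of all genes) and 0 lower. The mean level of the list was 0.15, 0.47 and 0.63 in low Se GD, with replicate 1 well below the others. It was 0.86, 0.82 and 0.95 in normal Se GD, and ran from 0.49 to 0.61 in low Se non-GD. Tnf was at -3.31, -2.77 and -2.53 in low Se GD and at -2.06, -2.08 and -1.55 in normal Se GD. The groups did not overlap, though the arrays of each were spread, and the rise was 0.98 with an SE of 0.21 (adjusted p = 0.0369). Nfkbiz, a nuclear regulator of NF-kB targets, was at -1.73, -1.91 and -1.98 against -1.24, -1.25 and -1.09, a rise of 0.68 (SE 0.10, adjusted p = 0.0161). Icam1, the adhesion ligand of leukocyte integrins, rose by 0.80 (SE 0.18, adjusted p = 0.0379), and Birc3, an NF-kB-induced inhibitor of cell death, by 0.48 (SE 0.09, adjusted p = 0.0301). Cxcl9, an interferon-gamma-induced chemokine, rose by 0.92 (SE 0.22, adjusted p = 0.048), with 0.53 within slide 2. For Tnf that value was 0.58, so both differences were smaller on the shared slide by more than 1.5 times.

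Of 23 Toll-like receptors and adaptors 4 rose (17.4%, against 5.14% of all genes) and none fell, with a median of 0.26 (0.21 within slide 2). Ly96, the partner of the endotoxin receptor, rose by 0.74 (SE 0.12, adjusted p = 0.0181), Traf6, an adaptor below these receptors, by 0.55 (SE 0.09, adjusted p = 0.0178), and Tlr3, the receptor for double-stranded RNA, by 0.82 (SE 0.20, adjusted p = 0.0488). Of 31 chemokines and their receptors 6 rose (19.4%) and none fell. Cxcr2, the neutrophil chemokine receptor, was at -4.33, -3.84 and -3.92 against -3.24, -2.40 and -2.84, a rise of 1.21 (SE 0.21, adjusted p = 0.0224). It was the 1 gene of 25 on the neutrophil list that rose, Retnlg fell by 0.79, and the median of that list was 0.14, and -0.03 within slide 2. Ccl19, which draws T cells and dendritic cells into the white pulp, rose by 1.04 (SE 0.19, adjusted p = 0.0232), though its 3 probes ran from -0.10 to 1.04.

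**Figure D4:**
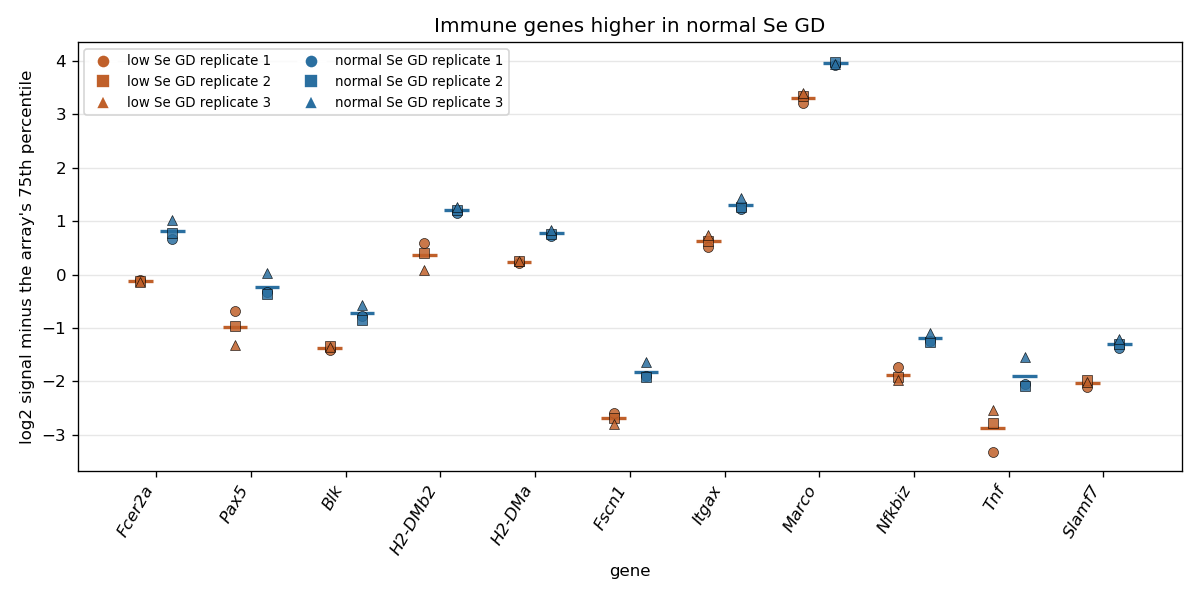
Log2 level minus the array's 75th percentile (vertical axis) of 11 genes higher in normal Se GD (horizontal axis), 1 symbol per array, with the group means as bars (orange low Se GD, blue normal Se GD). The groups do not overlap in any of the 11, and differences run from 0.53 for H2-DMa to 0.98 for Tnf.

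The 37 interferon-stimulated genes had a median difference of 0.31, but 0.03 within slide 2 and 0.03 without normal Se GD replicate 3. This array and its slide cannot be told apart. Among the 37, 2 rose (5.41%) and 1 fell (2.70%), near the 5.14% and 1.91% of all genes. In the 6-array fit 0 rose and 1 fell. Ifit2, an antiviral protein, was at -1.62, -1.50 and -1.45 in low Se GD and at -0.58, -0.95 and 0.09 in normal Se GD, a rise of 1.05 (SE 0.25, adjusted p = 0.0436). The dim array, alone on its slide, was the highest of the 6. Mean levels of the list ran from 1.63 to 1.66 in low Se GD, from 1.44 to 2.46 in normal Se GD and from 0.25 to 0.67 in low Se non-GD. Ifi27, another interferon-induced gene, fell by 0.44 (SE 0.10, adjusted p = 0.0384). Of 16 interferon-inducible GTPases Gbp5 and Gbp10 rose (12.5%), by 0.57 and 0.43, and the median was 0.38, and 0.18 within slide 2. In limma over the 6 GD arrays alone and with normexp background correction, 0 of the 16 passed.

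No T cell marker passed in limma, with 0 of 27 in either direction, and 0 at an unadjusted p under 0.05. Their median difference was 0.07, and the lowest adjusted p was 0.256, for Il7r, the interleukin 7 receptor, at -0.51. The mean level of the list was 1.23 to 1.40 in low Se GD, 1.30 to 1.45 in normal Se GD, so that the groups overlapped, and the low Se non-GD arrays reached past both on either side. Of 18 regulatory T cell and checkpoint genes 3 rose (16.7%, against 5.14% of all genes) and none fell, and 2 rose in the 6-array fit. Lag3, an inhibitory receptor that binds class II, was at -2.26, -2.28 and -2.24 in low Se GD and at -1.56, -1.75 and -1.13 in normal Se GD, a rise of 0.78 (SE 0.16, adjusted p = 0.0308). Cd274, the checkpoint ligand PD-L1, rose by 0.51 (SE 0.11, adjusted p = 0.0365), and Ikzf2, the regulatory T cell factor Helios, by 0.51 (SE 0.12, adjusted p = 0.0455). Among T helper genes the cytokine Il4 rose by 0.37 (SE 0.08, adjusted p = 0.0324). Its receptor Il4ra fell by 0.61 (SE 0.08, adjusted p = 0.0124), with a second probe at -0.09. Ifng, the main type 1 cytokine, was at 1.12 and missed the threshold (adjusted p = 0.0629), and Klrk1, the activating receptor NKG2D, rose by 0.75 (SE 0.13, adjusted p = 0.0215).

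Of 23 cholesterol synthesis genes 2 rose (8.70%, against 5.14% of all genes) and none fell. Without overlap 12 were higher, against 21.5% of all genes, and the list median was 0.35 (0.17 within slide 2). Hsd17b7, an enzyme of the pathway, rose by 0.92 (SE 0.13, adjusted p = 0.0163), and Srebf2, a factor that switches the pathway on, was at 0.66 and did not pass (adjusted p = 0.0587). In the stroma list 3 of 43 rose (6.98%, near the 5.14% of all genes), with a median of 0.30, and 0.15 within slide 2. Bgn, a matrix proteoglycan, was at -2.20, -2.53 and -2.77 against -1.71, -1.68 and -1.72, a rise of 0.80 (SE 0.14, adjusted p = 0.021).

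Among genes with a symbol that passed, the largest rise was that of Cd163l1, a scavenger receptor of the CD163 family, at -3.18, -3.33 and -3.66 in low Se GD and at -2.08, -1.92 and -2.25 in normal Se GD. Its difference was 1.31 with an SE of 0.14 (adjusted p = 0.0124), while the low Se non-GD arrays, at -3.23, -3.36 and -3.35, stood with low Se GD. Lilr4b, an inhibitory receptor of myeloid cells, rose by 1.21 (SE 0.16, adjusted p = 0.0132), and Plau, the urokinase plasminogen activator, by 1.09 (SE 0.15, adjusted p = 0.0156). Ifi213 and Trim30d, of interferon-induced families, rose by 1.12 and 1.07. Among the falls Ccdc92b was the most even, at -1.54, -1.51 and -1.52 against -3.43, -3.45 and -3.23, a difference of -1.84 (SE 0.20, adjusted p = 0.0124).

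**Figure D5:**
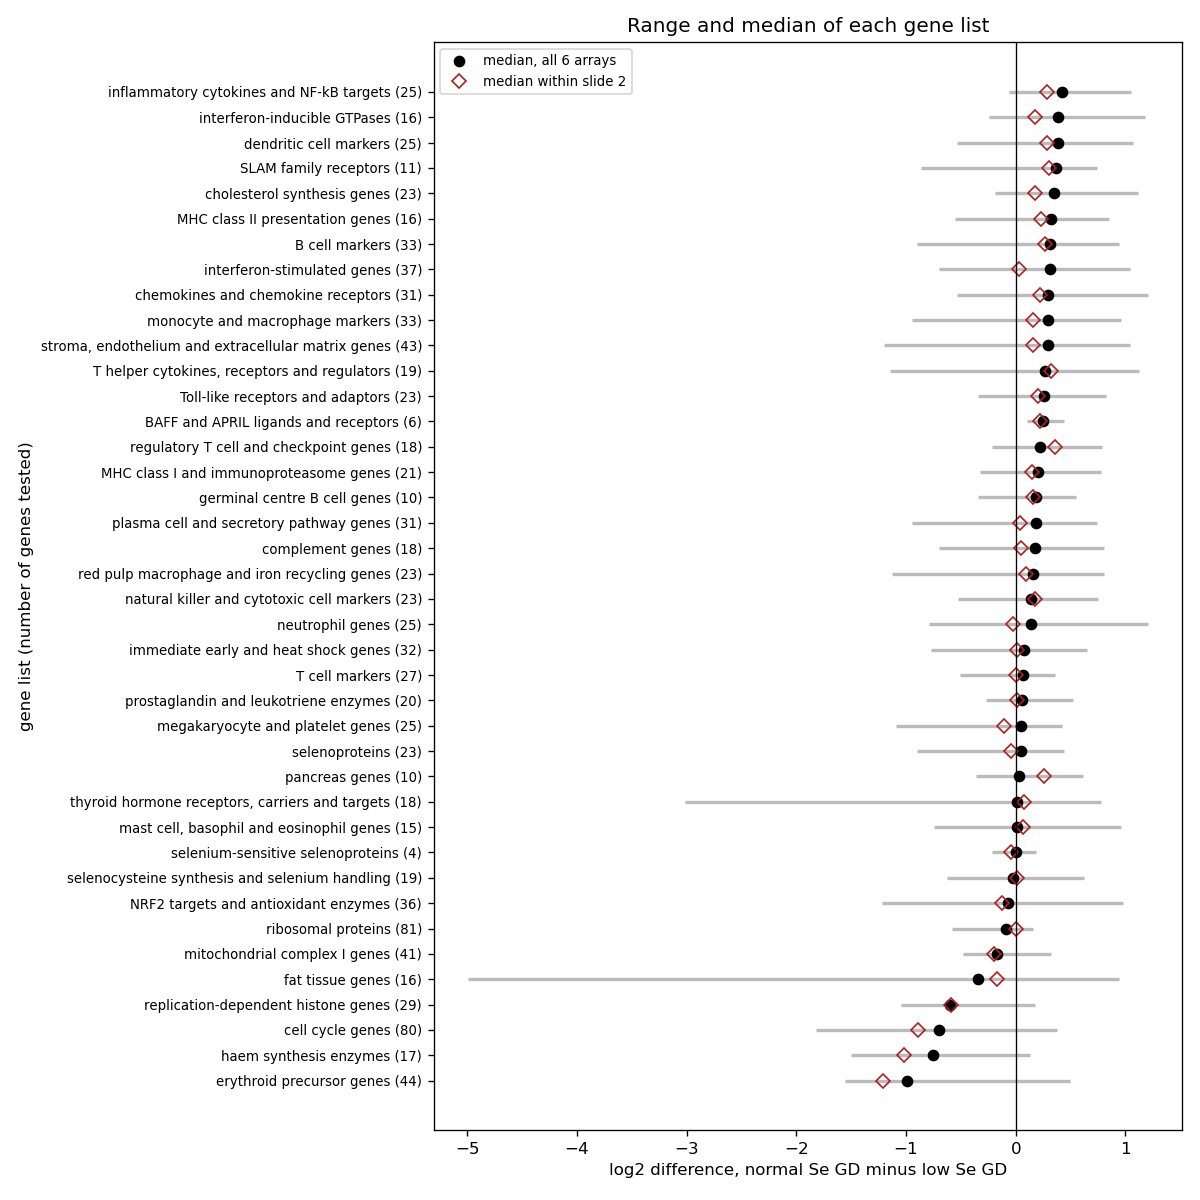
Log2 difference, normal Se GD minus low Se GD (horizontal axis), for the 40 gene lists (vertical axis, with the number of genes tested): grey lines run from the lowest to the highest member, black circles mark the median over all 6 GD arrays and red diamonds the median within slide 2. Erythroid precursor genes are lowest at -0.99 and inflammatory and NF-kB genes highest at 0.42.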

How the data were processed

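Spleen RNA of 9 samples from female BALB/c mice was read on Agilent arrays with 1 colour. Per the file headers, the authors extracted spot intensities with Agilent Feature Extraction 11.0.1.1, and the deposited intensity used here is the processed signal, already background-corrected. The authors also deposited a log2 table of the same arrays, used here only as an alternative, since no source used here gives its scaling or centring, and its low Se non-GD columns matched other arrays of that group best. Control spots and outlier spots were left out, log2 intensity was centred on the 75th percentile of each array, spots of a probe were averaged, and 1 probe per gene was kept, the one with the highest mean over the 6 GD arrays. Of 39429 probes, 27228 were named by a RefSeq accession (GRCm38.p6) and 12201 kept the accession of the array design. Genes well above background on all 6 GD arrays entered a fit by lmFit and eBayes of limma 3.58.1 (R 4.3.3), 2-sided and with no covariates, in which all 9 arrays shared 1 estimate of the spread on 6 residual and 2.20 prior degrees of freedom. The number of arrays limits the precision. The script was tested on simulated data. Median spot signals stood in for mean signals in the normexp alternative (offset 50), since these files hold no mean signal column.

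Named genes are the 15 largest changes in each direction that passed without overlap and have a symbol, all selenoproteins, up to 8 passing and 3 not passing members of each of the 40 lists, and up to 10 genes per direction measured in 1 GD group only. Some genes that this rule names are not reported here. The members of the comparison and the lists were chosen with earlier results of these data known.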

Additional observations from a re-analysis of the deposited data

How the results depend on the processing

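Normalization and filters moved the counts of 960 higher and 357 lower genes. Higher and lower calls numbered 521 and 307 with normexp background correction, 414 and 175 with quantile normalization, 1487 and 353 with the percentile taken over bright probes, and 397 and 170 in the deposited log2 table. With genes above background on at least 3 of the 6 arrays they numbered 294 and 84 of 26006, and with no filter 0 and 0 of 32408, where limma gave 3992 and 1595 at an unadjusted p under 0.05. Array weights gave 8705 and 6401, and weighted the arrays that lie between others of their group at 459 (replicate 3 of low Se non-GD) and 46.0 (replicate 2 of low Se GD). Slide as a block gave 2177 and 1152, slide 2 alone 3272 and 2383, and the 6 GD arrays alone 424 and 363. A fit to these 6 without low Se GD replicate 2, chosen after seeing the data, gave 0 and 0, where limma had 1642 and 935 at an unadjusted p under 0.05. Leaving out 1 array at a time gave from 0 to 1341 higher and from 0 to 732 lower. Without both in-between arrays no gene passed (0 and 0), with 1707 and 698 at an unadjusted p under 0.05. With the replicate number as a block no gene passed (0 and 0), over 6 or over 9 arrays, with 2324 and 1477 or 2812 and 1558 at an unadjusted p under 0.05. Deviations of same-numbered arrays from their group means correlated at 0.23, -0.17 and 0.10. With 3 arrays per group, these values cannot show whether the numbers pair the samples. The cause of these shifts was not tested.

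No called gene changed sign, except 2 with at least 3 of 6 arrays, 2 with no filter and 5 with the mean of all probes. Selenoi, not called, turned to -0.14 under array weights (adjusted p = 0.00014). Medians of 29 of the 40 lists kept their sign under all 26 alternatives. The other 11, all with medians within 0.14 of 0, were selenoproteins, selenium-sensitive selenoproteins, selenium handling, thyroid, NRF2, T cell, neutrophil, mast cell, megakaryocyte, pancreas and ribosomal protein genes.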

Other observations

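Other leukocyte lists, described here by their counts beside 5.14% higher and 1.91% lower of all genes, gave small numbers of calls in normal Se GD. Of 11 SLAM family receptors, which tune lymphocyte contacts, 3 rose, and their median difference was 0.36 (0.31 within slide 2). Slamf9 rose by 0.70 (SE 0.14, adjusted p = 0.0328), with 0.46 within slide 2, and Slamf6 by 0.52 (SE 0.12, adjusted p = 0.0461). Among 15 mast cell, basophil and eosinophil genes Cpa3 and Mcpt4, proteases of mast cell granules, rose. Cpa3 was at -4.22, -3.97 and -3.90 in low Se GD and at -3.01, -3.27 and -2.95 in normal Se GD, a rise of 0.96 (SE 0.16, adjusted p = 0.0197), and Mcpt4 rose by 0.74 (SE 0.17, adjusted p = 0.0417). The median of that list was 0.01, and the other members did not pass. Of 21 MHC class I and immunoproteasome genes Tapbpl, a peptide editor, and Psmb8, an immunoproteasome subunit, rose by 0.57 and 0.61 (0.37 within slide 2 for Psmb8), and the list median was 0.20. In the 6-array fit 0 of the 21 passed. Of 18 complement genes C1s1, the protease of the first component, rose by 0.78 (SE 0.17, adjusted p = 0.0365), and the median was 0.17, but 0.05 within slide 2. Natural killer and cytotoxic genes gave 1 higher of 23 and a median of 0.14 (0.18 within slide 2), and BAFF and APRIL genes 1 higher of 6 and a median of 0.25.

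The other lists had medians from -0.17 to 0.08. Ribosomal protein genes had a median of -0.09, and none of 81 passed in limma, with 0 higher and 5 lower at an unadjusted p under 0.05. Of 41 genes of mitochondrial complex I, the first enzyme of the respiratory chain, Ndufs5 fell by 0.30 (SE 0.07, adjusted p = 0.0404). That is 2.44%, against 1.91% of all genes. The median was -0.17 (-0.20 within slide 2), and 7 of the 41 differences were above 0. In limma 3 were higher and 12 lower at an unadjusted p under 0.05. Without overlap 3 were higher and 14 lower, against 21.5% and 14.2% of all genes. No megakaryocyte or platelet gene passed of 25 (1 higher and 2 lower at an unadjusted p under 0.05), although Gata1 and Nfe2, which erythroid cells also use, were at -1.02 and -1.09. No pancreas gene passed of 10 (3 higher and 0 lower unadjusted) and no prostaglandin or leukotriene enzyme of 20 (3 higher and 1 lower unadjusted), with medians of 0.03 and 0.06 (0.26 and 0.01 within slide 2). Of 32 immediate early and heat shock genes Ier3 and Klf6 rose, by 0.50 and 0.49, and the median was 0.08 (0.01 within slide 2).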
